A study of Mus musculus with 18 samples.

Results

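Mouse embryonic stem cells (ESCs) overexpressing c-Myc T58A were compared with ESCs overexpressing wild-type c-Myc, untreated and under LY294002, an inhibitor of phosphoinositide 3-kinase (PI3K). The samples were taken by their titles: 3 c-Myc T58A samples and 3 wild-type c-Myc samples, matched by time, 6 of the 18 arrays of the series. Each line gave 1 untreated sample, 1 sample after 2 days and 1 sample after 5 days of LY294002. All 6 came from derivatives of the male 129SV ESC line EBRTcH3 grown with serum and LIF, the cytokine that keeps mouse ESCs undifferentiated. The T58A samples carried the c-Myc(T58A)-overexpressing genotype label and the others the c-Myc(wild)-overexpressing one. The promoter and the vector, and whether a line was 1 clone or a pool, were not given in the sources used here. The description of the untreated T58A sample names N-Myc as the gene overexpressed in the treated samples it serves, so the construct of those samples rests on their titles and genotype labels. The parental EBRTcH3 ESCs of serum replicate 2, also sampled untreated and at days 2 and 5, are given as the line without added c-Myc. The title of the parental day 2 sample carries no version mark, and it is tied to replicate 2 by the description of the untreated sample, which names it as one of the samples it serves. Their arrays had medians of 5.36 to 5.37 on the log2 scale, against 5.31 to 5.37 for the 6 c-Myc arrays.

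c-Myc is a transcription factor that binds DNA with its partner Max and drives genes for growth, ribosomes and metabolism. Phosphorylation of the threonine that T58A replaces, by GSK3, marks c-Myc for the ubiquitin ligase Fbxw7 and for degradation, and PI3K signalling through Akt holds GSK3 in check, so that PI3K inhibition favours loss of the wild-type protein. The T58A form has alanine at that residue and escapes this route. In mouse ESCs Myc and PI3K signalling both sustain self-renewal, and the comparison bears on what the stable form adds to wild-type c-Myc with and without PI3K activity.

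Levels are log2 RMA values of 1 probe set per gene, and differences are T58A minus wild type, so that 1 is a 2-fold difference and 0.58 a 1.5-fold one. A gene was tested where at least 2 of the 6 samples exceeded 4.64, which is the 40th percentile of all values, and this kept 13307 of 18193 genes. The 5 ESC markers Pou5f1, Sox2, Nanog, Zfp42 and Utf1 lay between 10.30 and 13.05 in the T58A samples and between 10.23 and 13.07 in the wild-type samples. Of 6 fibroblast markers for feeder cells, Col1a1, Col3a1, Lum and Postn were below 4.64 in all 6 samples, and the highest reading of these 6 was 5.55 in T58A and 5.83 in wild-type samples. On a longer list of fibroblast genes Fbln1 read up to 6.96 in T58A and 7.07 in wild type and Tagln up to 6.44 in T58A and 6.93 in wild type. Arrays give no read depth, and the precision is limited by having 1 array per line and day. Separate cultures were not stated, and the p-values rest on how far the difference between the lines varied from day to day. That spread holds any change of the difference with LY294002 as well as technical variation, so it is not a spread between replicates.

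No gene passed the test of a difference between T58A and wild-type c-Myc ESCs over the 3 days. In limma's moderated test with day as a block, 0 of 13307 genes passed an adjusted p of 0.05 (percent called 0%), with none below 0.785. An unadjusted p under 0.05 was found for 791 genes (5.94%), of which 354 were higher (2.66%) and 437 lower (3.28%) in T58A. The test had 2 residual degrees of freedom, which come from the change of the difference between days. A difference confined to a single day therefore counts largely as error in this test. The 95% interval of the mean difference over the days reached a median of 0.20 to either side. For 13291 genes (99.9%) that interval lay within 2-fold in both directions, and for 97.4% within 1.5-fold. A total of 2205 genes (16.6%) read higher and 1661 (12.5%) lower in T58A on all 3 days, but 0 did so by 1.5-fold or more each day. The differences of the separate days were close to unrelated across genes, which are not independent replicates: r was 0.05 between untreated and day 2, 0.17 between untreated and day 5, and -0.05 between day 2 and day 5.

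Day 2 was when the lines lay furthest apart. At least 2-fold differences numbered 2 untreated (0.015%), 27 at day 2 (0.203%) and 3 at day 5 (0.0225%). At day 2, 22 genes were higher (0.165%) and 5 lower (0.0376%) in T58A. The SD of the differences over genes was 0.18 untreated, 0.22 at day 2 and 0.17 at day 5. With 1 sample per line and day, these counts have no test. LY294002 itself gave larger numbers within each line. In T58A ESCs 341 genes (2.56%) were at least 2-fold away from untreated at day 2 and 798 (6%) at day 5, in wild-type c-Myc ESCs 523 (3.93%) and 972 (7.3%), and in parental replicate 2 792 (5.95%) and 1270 (9.54%).

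**Figure D1:**
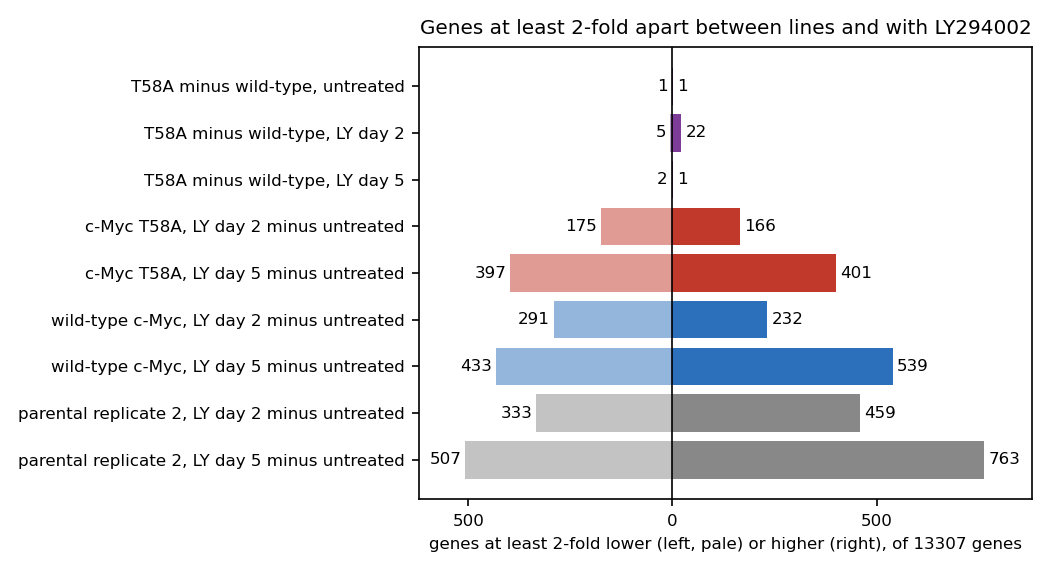
Number of genes, of 13307, at least 2-fold lower (left, pale) or higher (right) for T58A minus wild-type c-Myc on each day and for LY294002 minus untreated in each line, from 1 array per bar end. The line differences reach 22 genes at day 2, whereas LY294002 at day 5 reaches 401 higher genes in T58A, 539 in wild-type c-Myc and 763 in parental ESCs.

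Genes that LY294002 moved in parental ESCs had smaller median changes from untreated in T58A than in wild-type c-Myc ESCs, with no test. The genes were chosen on the parental arrays alone, which enter neither c-Myc line. The 459 genes at least 2-fold higher at day 2 in parental replicate 2 had a median change of 0.70 in T58A and 0.84 in wild-type c-Myc ESCs, and the 333 lower ones had medians of -0.79 in T58A and -1.05 in wild type. The 763 genes higher in parental ESCs at day 5 had medians of 0.88 in T58A and 1.05 in wild type, and the 507 lower ones had -1.09 in T58A and -1.20 in wild type. The change in the parental direction was smaller in T58A for 67.1%, 78.1%, 79.8% and 70.8% of these 4 sets. A gene that moved the opposite way in T58A can be counted here too. No such share was worked out for all genes, so these percentages have no background beside them. The untreated arrays of the lines differed in these sets too. The median difference, T58A minus wild type, of the genes lower in parental ESCs was -0.12 untreated and 0.14 at day 2 for the day 2 set, and -0.12 untreated and -0.01 at day 5 for the day 5 set, so the lines were level at day 5. For the genes higher in parental ESCs it was 0.05 untreated and -0.09 at day 2, and 0.06 untreated and -0.14 at day 5. The untreated array of each line enters both of its changes.

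The genes furthest apart at day 2 included stress response and amino acid genes, with 8 of the 22 higher ones on a list of ATF4 response genes. That list holds 22 of the 13307 genes tested. B4galnt2, a glycosyltransferase gene, read 7.95, 7.00 and 3.91 untreated, at day 2 and at day 5 in T58A, against 8.21, 4.86 and 4.65 in wild-type ESCs. Its day 2 level was thus 4.39-fold higher in T58A (2.14), while on the other days T58A was the lower line. A further B4galnt2 probe set above the filter differed by 0.59 at day 2. Nupr1, a stress-induced chromatin cofactor, read 10.82, 10.09 and 5.69 in T58A and 10.92, 8.46 and 5.59 in wild-type ESCs, 3.1-fold higher in T58A at day 2 (1.63) and within 0.11 on the other days. Its second probe set differed by 1.64 at day 2. Aldh1l2, a mitochondrial folate enzyme gene, was 2.97-fold higher and the histocompatibility gene H2-Bl, a member of a family of similar sequences, 2.82-fold higher at day 2. Also at least 2-fold higher were Gch1, which starts tetrahydrobiopterin synthesis (1.41), the AP-1 repressor gene Jdp2 (1.39) and the lipase inhibitor gene G0s2 (1.33). So were Cpeb3, which encodes an mRNA-binding protein (1.21), the transcription factor gene Atf5, the secreted glycoprotein gene Stc2 (1.01) and the collagen chaperone gene Serpinh1 (1.02). At day 2, T58A read above parental replicate 2 for 21 of the 22 higher genes, and wild type read below it for 18. The choice of these genes by T58A above wild type favours both counts.

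ATF4 is a transcription factor made when amino acids run short or unfolded proteins build up, and it switches on amino acid transport and synthesis genes together with stress regulators such as Atf3 and Ddit3. Of a list of 22 tested ATF4 and amino acid response genes, 22 read higher in T58A than in wild-type ESCs at day 2 (background 53.6% of all genes). Of these, 16 did so by at least 1.5-fold (background 1.19%) and 8 by at least 2-fold (background 0.165%). The list was chosen with earlier results of these data known, so an excess over the background is no independent evidence. The median difference was -0.03 untreated, 0.80 at day 2 and -0.01 at day 5, against 0.02, 0.02 and -0.00 for all genes tested. Averaged over the days the median was 0.24, which became -0.03 without day 2, and 0 of the 22 passed the test over all genes. An unadjusted p under 0.05 in limma's test was reached by 3 in the higher (background 2.66%) and 0 in the lower direction (background 3.28%). The day 2 separation thus stood on 1 array per line.

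The list's change with LY294002 was also read within each line. From untreated to day 2 the list had a median change of -0.05 in T58A, with 14 of 22 genes below 0 and 0 at least 2-fold lower (background 1.32%). In wild-type ESCs the median was -0.75, with 22 of 22 below 0 and 5 at least 2-fold lower (background 2.19%). In parental replicate 2 the median was -0.88. The share of all genes below 0 was not worked out for these changes, so the counts below 0 have no background. From untreated to day 5 the medians were -1.49 in T58A, -1.43 in wild-type and -1.39 in parental ESCs, with 16 genes at least 2-fold lower in T58A (background 2.98%) and 16 in wild type (background 3.25%).

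The promoters of 3 genes with large day 2 differences are printed to show the ATF4 and C/EBP response element, an 8-letter motif with the letters TGATGNAA, or TTNCATCA read on the other strand. The sequences are RefSeq start sites on GRCm38.p6, from 250 bases before to 50 bases after the start, 5′ to 3′ on the gene's strand, with the motif in capitals. Nupr1 lies at chr7:126625421-126625720 (minus strand), Atf3 at chr1:191183284-191183583 (minus strand) and Chac1 at chr2:119350992-119351291 (plus strand).
Nupr1: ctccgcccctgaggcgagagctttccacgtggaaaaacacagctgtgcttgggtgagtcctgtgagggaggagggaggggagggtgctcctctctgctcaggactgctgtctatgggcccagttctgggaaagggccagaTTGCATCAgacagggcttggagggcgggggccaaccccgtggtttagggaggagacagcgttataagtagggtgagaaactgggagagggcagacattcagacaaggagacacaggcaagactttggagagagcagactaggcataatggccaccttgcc
Atf3: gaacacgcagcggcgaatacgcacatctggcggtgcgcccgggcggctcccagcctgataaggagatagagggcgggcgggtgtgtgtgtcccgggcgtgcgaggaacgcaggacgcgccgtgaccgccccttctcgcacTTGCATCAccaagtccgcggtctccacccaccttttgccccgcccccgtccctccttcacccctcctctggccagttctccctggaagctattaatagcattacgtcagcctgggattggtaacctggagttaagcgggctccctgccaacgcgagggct
Chac1: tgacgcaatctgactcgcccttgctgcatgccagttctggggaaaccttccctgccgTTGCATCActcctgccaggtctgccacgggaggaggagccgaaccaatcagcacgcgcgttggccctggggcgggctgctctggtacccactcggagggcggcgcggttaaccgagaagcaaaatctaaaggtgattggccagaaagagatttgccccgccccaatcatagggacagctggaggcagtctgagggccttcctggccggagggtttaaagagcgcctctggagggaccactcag

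Counted from the start site, the motif began at -110 in Nupr1 and in Atf3 and at -193 in Chac1. It was also found in the promoters of Trib3, Asns and Vldlr, making 6 of the 19 listed genes with a promoter in the table. Among all promoters of the same length 3.97% held it, and 4.51% of genes did. The list is one of ATF4 response genes, so its choice favours a larger share than among all genes. A match says that the letters are there and nothing about binding, and genes without one, such as Ddit3 and Cebpb, also differed.

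Atf3, a stress-induced repressor and activator of transcription, read 7.26, 7.49 and 5.19 in T58A and 7.25, 6.13 and 5.32 in wild-type ESCs untreated, at day 2 and at day 5. Only the day 2 samples were apart, by 1.36. Ddit3, the gene for the stress factor CHOP, read 9.28, 10.50 and 7.35 in T58A against 9.48, 9.35 and 7.79 in wild-type ESCs. A second Ddit3 probe set read 7.42, 7.34 and 5.72 in T58A and 7.88, 6.60 and 5.64 in wild-type ESCs, so both were higher in T58A at day 2, but they disagreed on whether T58A was above its own untreated level. Chac1, which encodes a glutathione-degrading enzyme, was at 9.61, 10.49 and 7.13 in T58A and 9.71, 9.47 and 7.37 in wild-type ESCs. Trib3, a pseudokinase gene, was at 10.05, 10.50 and 7.68 in T58A and at 10.12, 9.52 and 7.66 in wild-type ESCs. Cebpb, a partner of ATF4, read 9.85, 9.94 and 8.33 in T58A and 9.74, 8.90 and 8.31 in wild-type ESCs. Ddit4, an inhibitor of mTORC1, differed by 1.02 at day 2, Cth, which makes cysteine, by 1.00 and the lipoprotein receptor gene Vldlr by 1.00. Parental replicate 2 lay at 10.39 for Ddit4 at day 2, level with the 10.41 of T58A and above the 9.38 of wild type, whereas for Cth it lay at 10.41, near the 10.27 of wild type and below the 11.28 of T58A.

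**Figure D2:**
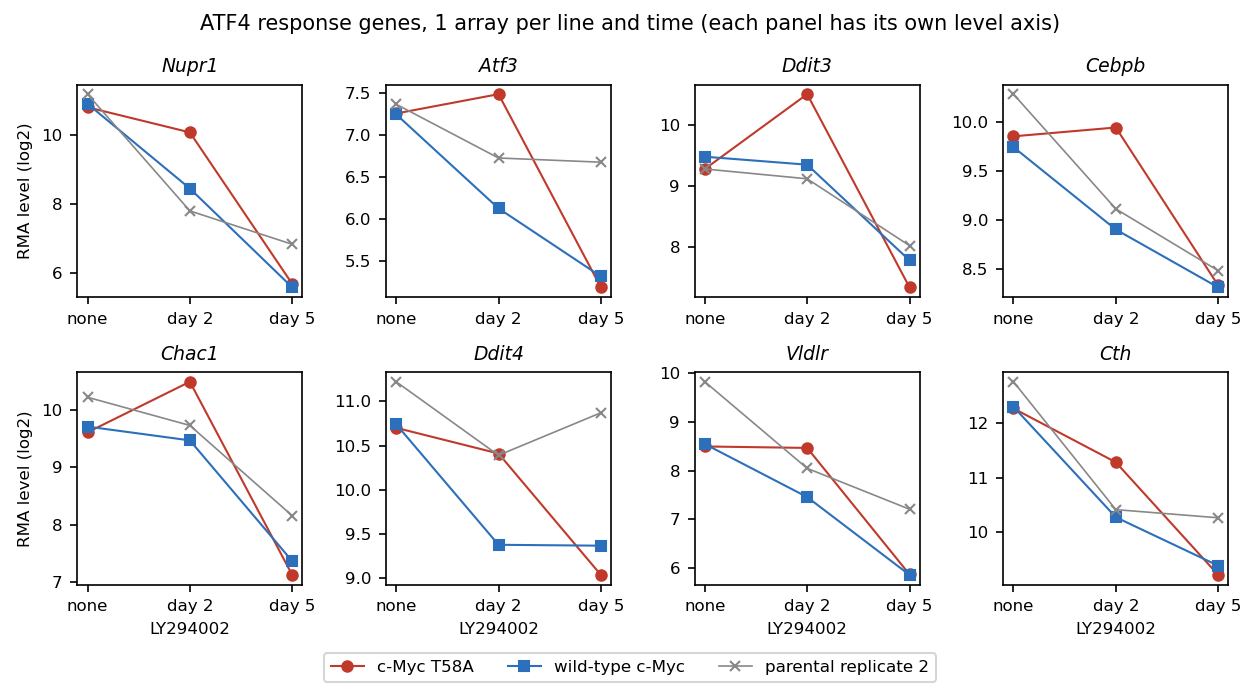
RMA levels (log2) of 8 ATF4 response genes by time under LY294002 in c-Myc T58A (red circles), wild-type c-Myc (blue squares) and parental replicate 2 ESCs (grey crosses), 1 array per point and a separate level axis per gene. The c-Myc lines are close untreated and apart at day 2, when Nupr1 stands at 10.09 in T58A and 8.46 in wild type, and at day 5 Nupr1 is at 5.69 in T58A and 5.59 in wild type.

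Enzymes of serine, folate and proline synthesis and amino acid transporters stood apart at day 2 to a smaller extent. Aldh18a1, which starts proline synthesis, differed by 0.88, the mitochondrial folate gene Mthfd2 by 0.85, the serine synthesis genes Psph, Phgdh and Psat1 by 0.74, 0.59 and 0.44, and asparagine synthetase, Asns, by 0.44. The transporter genes Slc7a1, Slc7a5 and Slc3a2 differed by 0.73, 0.64 and 0.44. Slc7a3 differed by 0.06 and Atf4 itself by 0.30, so the list was not even. Slc7a11, the cystine transporter gene, lay below the level filter, with readings of 3.18 to 4.48 over the 6 samples. Over the 3 days Slc7a1 had the lowest p of those named from the list, with a mean difference of 0.37 ± 0.127 (SE, n = 3 days; limma adjusted p = 0.785).

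Glycolysis and hypoxia genes were on the other side at day 2. This list holds enzymes that turn glucose into lactate and genes that HIF drives in low oxygen, and it too was chosen with earlier results known. Of 20 tested, 19 read lower in T58A at day 2 (background 46.4%), against 6 untreated (background 45.6%) and 8 at day 5 (background 50.7%), with medians of 0.15, -0.40 and 0.02 untreated, at day 2 and at day 5, and 0 passed the test. Bnip3, a mitophagy receptor gene that HIF induces, read 8.26, 9.92 and 12.00 in T58A and 8.37, 11.31 and 11.97 in wild-type ESCs, 2.61-fold lower in T58A at day 2 and level on the other days. Pfkl, a phosphofructokinase gene, read 7.70, 8.85 and 9.99 in T58A and 7.57, 9.64 and 10.06 in wild-type ESCs. The glucose transporter gene Slc2a1 differed by -0.49, Tpi1 by -0.55, Pkm by -0.41 and lactate dehydrogenase, Ldha, by -0.43 at day 2. Ldha was 0.42 higher in T58A untreated, and the angiogenic factor gene Vegfa was the exception at day 2, 0.67 higher. The list's change from untreated to day 2 had a median of 0.37 in T58A, 0.88 in wild-type and 0.86 in parental ESCs, and to day 5 of 1.09 in T58A, 1.18 in wild-type and 1.36 in parental ESCs.

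Among the other genes at least 2-fold lower in T58A at day 2 were Pdzd2, which encodes a PDZ-domain protein (4.59 in T58A and 5.80 in wild type), Pla2g7, a secreted phospholipase gene (-1.19), Mex3b, an RNA-binding protein gene (-1.18), and Myc (-1.13). The Pdzd2 call came from its chosen probe set, and its others above the filter differed by 0.10 and -0.04 at day 2. The T58A day 2 readings of Pdzd2, Pla2g7 (3.48) and Mex3b (4.07) were below the filter level of 4.64, where differences are uncertain in size.

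Myc itself was read first among the regulators. Its probe set read 6.99, 8.37 and 9.55 in T58A, 7.51, 9.50 and 9.60 in wild-type and 7.43, 9.19 and 9.60 in parental ESCs untreated, at day 2 and at day 5. T58A was the lowest of the 3 on every day, by 0.52, 1.13 and 0.05 below wild type, and its day 2 reading was 2.18-fold lower than wild type (mean -0.57 ± 0.193, SE, n = 3 days; limma adjusted p = 0.785). Whether this probe set covers the introduced c-Myc cDNA is not stated, so it does not check the overexpression. Mycn, the gene for N-Myc, read 9.33, 11.60 and 11.96 in T58A, 10.07, 11.83 and 12.30 in wild-type and 11.33, 12.38 and 11.95 in parental ESCs (mean difference -0.43 ± 0.112, limma adjusted p = 0.785). T58A was below wild type on all 3 days. One of the other 2 Mycn probe sets had a mean difference of -0.50 and the other of -0.00. Max, the partner of c-Myc, had a mean difference of -0.07, Fbxw7 of -0.16 and the kinase gene Gsk3b of -0.08, all with 95% intervals that include 0, and the other Gsk3b probe sets ranged from -0.33 to 0.17. Across the 13 tested genes of the Myc-Max network 9 had mean differences below 0 (background 44.9%), with a median of -0.06. Among 16 genes of c-Myc phosphorylation and degradation 12 did, with a median of -0.05.

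Ribosome biogenesis genes and other textbook Myc targets, nucleotide synthesis genes and cell cycle genes had medians near 0 over the 3 days, with daily values on both sides. Of 32 ribosome biogenesis genes 0 passed, 21 lay above 0 (background 55.1%) and the median difference was 0.04, with 0.12 ± 0.0768 for the nucleolar gene Nop56. The largest in size was that of the cyclin gene Ccnd2, lower in T58A at -0.26 ± 0.147. The T58A day 5 reading of Ccnd2, 4.54, was below the filter level. The list's daily medians were 0.09, -0.03 and 0.04, with 8 genes lower in T58A untreated, 21 at day 2 and 10 at day 5. The 18 nucleotide synthesis genes had a median of 0.04, with 0.17 ± 0.0689 for Umps of the pyrimidine route. The largest in size of these was that of Tyms, lower in T58A at -0.32 ± 0.153. The 23 replication and mitosis genes had a median of -0.01. The nucleotide synthesis medians were 0.14, -0.11 and 0.07, with 2 of 18 genes lower in T58A untreated, 14 at day 2 and 4 at day 5, against 45.6%, 46.4% and 50.7% of all genes. The 95% intervals of Nop56 and Umps were -0.07 to 0.31 and -0.00 to 0.34. Bcl2 family genes had a median of -0.00 over 15 genes. Bcl2l11, the pro-apoptotic gene for Bim, read 8.71, 8.74 and 9.85 in T58A and 8.81, 8.94 and 9.93 in wild-type ESCs, a mean difference of -0.12 ± 0.0707. Among 20 p53 targets and CDK inhibitors 15 were higher in T58A at day 2 (background 53.6%) and 5 lower (background 46.4%). The medians were -0.05, 0.33 and -0.06 over the 3 times, and the day 2 value rests on 1 array per line with no test. Among the higher ones, the p53 targets Phlda3, Btg2 and Ccng1 differed by 0.65, 0.59 and 0.54 at day 2. Sesn2, also on the ATF4 list, differed by 0.61. Cdkn1c, a CDK inhibitor gene, had the list's largest mean difference in size and was lower in T58A, at -0.32. Its daily differences were -0.55, -0.03 and -0.38. Cdkn2a, the locus of p16 and p19Arf, read 7.73, 8.54 and 8.26 in T58A, 7.30, 8.20 and 8.19 in wild-type and 6.16, 6.84 and 6.63 in parental ESCs (mean 0.28 ± 0.0916, SE, n = 3 days; limma adjusted p = 0.785).

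**Figure D3:**
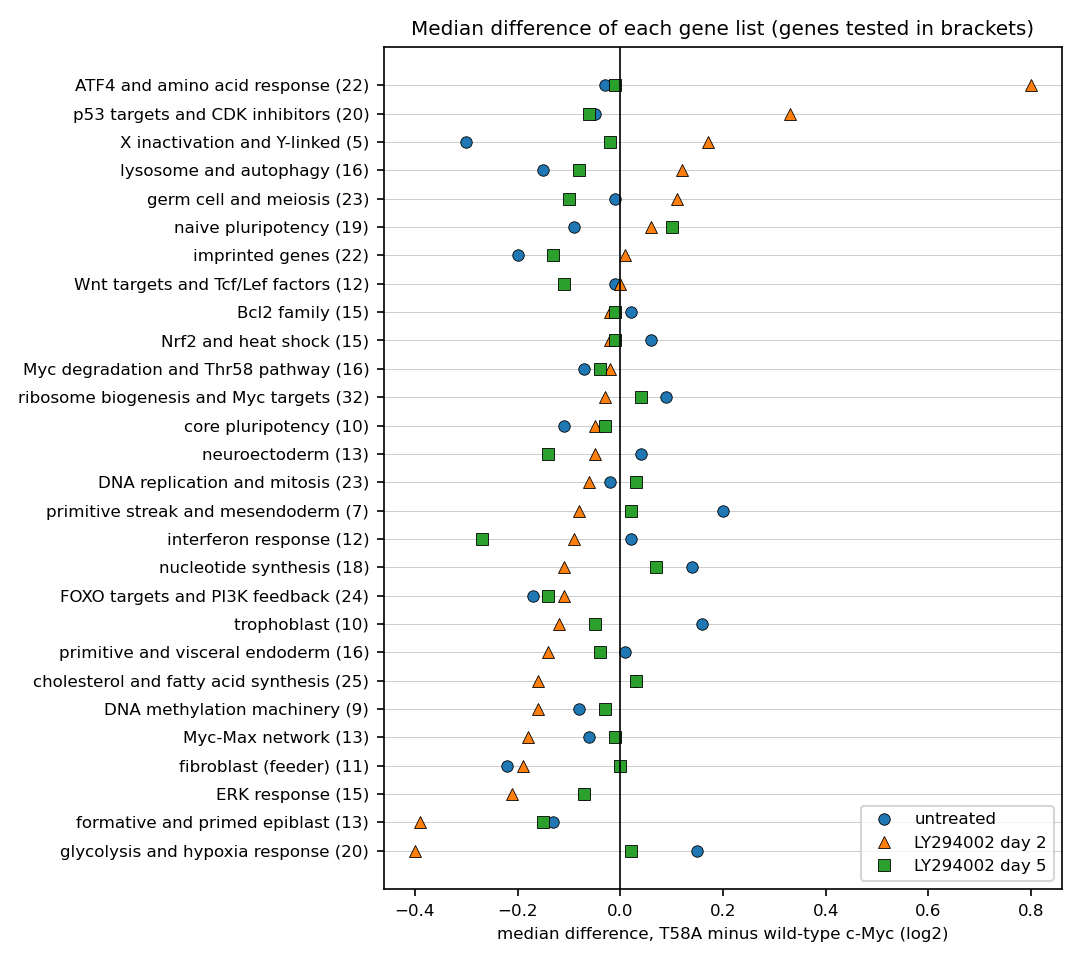
Median difference of each gene list, T58A minus wild-type c-Myc (log2), untreated (circles), at LY294002 day 2 (triangles) and day 5 (squares), with the number of genes tested in brackets and lists under 5 genes left out. The ATF4 list stands at 0.80 at day 2 and the glycolysis list at -0.40, and both lie within 0.15 of 0 on the other days.

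Genes of pluripotency were close between the lines. Pou5f1, the gene for Oct4, read 12.94, 13.05 and 13.00 in T58A and 13.00, 13.07 and 12.95 in wild-type ESCs. Sox2 and Nanog had mean differences of -0.04 and -0.03, with 95% intervals of -0.21 to 0.13 and -0.22 to 0.16. All 10 core pluripotency genes had mean differences below 0 (background 44.9%), but with a median of -0.07 and 0 passing, and the largest was Lin28a, an RNA-binding protein gene, at -0.27. The 19 naive pluripotency genes split 10 above and 9 below 0 in the mean over days, with a median of 0.00. By day the medians were -0.09, 0.06 and 0.10. Lower in T58A were 16 genes untreated (background 45.6%), 8 at day 2 (background 46.4%) and 5 at day 5 (background 50.7%).

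Formative genes, which mark the epiblast state after naive pluripotency, read lower in T58A. Of 13 tested, 12 had mean differences below 0 (background 44.9%) and 7 were lower on all 3 days (background 12.5%). An unadjusted p under 0.05 in limma's test was found for 5 in that direction (background 3.28%), and 0 passed. The medians were -0.13, -0.39 and -0.15 untreated, at day 2 and at day 5, and 13 of 13 were lower at day 2 (background 46.4%). The median over the 3 days was -0.18, and -0.12 without day 2. Pim2, a kinase gene, read 6.58, 8.47 and 9.59 in T58A, 6.86, 9.22 and 10.34 in wild-type and 7.47, 11.00 and 11.04 in parental ESCs (mean -0.60 ± 0.112, SE, n = 3 days; limma adjusted p = 0.785). T58A was lowest and parental ESCs highest on every day. Lef1, a Wnt pathway transcription factor gene, read 5.59, 7.58 and 8.28 in T58A and 5.83, 8.51 and 8.47 in wild-type ESCs, with the lines 0.93 apart at day 2. Pou3f1, the gene for Oct6, was 0.49 higher in T58A untreated and 0.74 and 0.56 lower at days 2 and 5. The neural cadherin gene Cdh2 differed by -0.43, -0.51 and -0.39, Otx2, a homeobox gene of the epiblast, by -0.60, -0.08 and -0.24, and the DNA methyltransferase genes Dnmt3a and Dnmt3b by -0.39 and -0.46 at day 2.

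FOXO targets and PI3K feedback genes, most of which are induced when PI3K and Akt signalling is low, read a little lower in T58A with and without the inhibitor. Of 24 tested, 20 had mean differences below 0 (background 44.9%) and 10 were lower on all 3 days (background 12.5%). An unadjusted p under 0.05 in limma's test was found for 5 in the lower direction (background 3.28%), and 0 passed. The medians were -0.17, -0.11 and -0.14 untreated, at day 2 and at day 5. The median over the 3 days was -0.14, and -0.08 with the mean of probe sets. The list also holds PI3K and Akt subunit genes such as Pik3ca (-0.15) and Akt1 (0.03). Irs2, an insulin receptor adaptor gene, read 6.86, 7.30 and 7.85 in T58A, 7.26, 7.72 and 8.21 in wild-type and 7.36, 8.51 and 8.96 in parental ESCs, and its differences of -0.39, -0.42 and -0.37 were nearly the same on the 3 days (mean -0.39 ± 0.0677, SE, n = 3 days; limma adjusted p = 0.785). Irs1 had a mean difference of -0.30, the receptor gene Erbb3 of -0.46, the ubiquitin ligase gene Fbxo32 of -0.28 and the insulin receptor gene Insr of -0.20. The list's median change with LY294002 was equal in the c-Myc lines, 0.24 in T58A and 0.24 in wild-type ESCs at day 2, and 0.39 in T58A and 0.39 in wild-type ESCs at day 5, against 0.47 and 0.59 in parental ESCs. Bcl6, a transcriptional repressor gene, was 0.73 higher in T58A at day 2.

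Imprinted genes are expressed from 1 parental allele, and in ESC lines the transcripts of the Dlk1-Dio3 cluster on chromosome 12 vary from clone to clone. Meg3, a non-coding RNA of that cluster, read 11.52, 12.21 and 11.78 in T58A, 12.31, 12.45 and 12.11 in wild-type and 12.99, 12.91 and 12.71 in parental ESCs. T58A was lowest on all 3 days, by 0.79 below wild type untreated (mean -0.45 ± 0.119, SE, n = 3 days; limma adjusted p = 0.785). The other 10 Meg3 probe sets above the filter all had mean differences below 0, from -0.57 to -0.06. Rian and Mirg of the same cluster had mean differences of -0.32 and -0.33, and their other probe sets, 3 and 1, were lower on all 3 days too. Dlk1, the protein-coding gene of the cluster, differed by -0.03. Over 22 imprinted genes 16 had mean differences below 0 (background 44.9%), with a median of -0.09, and 0 passed.

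The 24 genes with the steadiest differences were ranked by the smallest of the 3 daily differences, 12 in each direction, and 0 of them passed. Rec114, a gene of meiotic recombination, read 5.67, 6.38 and 6.65 in T58A, 4.87, 5.90 and 6.12 in wild-type and 4.84, 5.31 and 5.76 in parental ESCs. T58A was highest on each day, by 0.81, 0.49 and 0.53 over wild type (mean 0.61 ± 0.0882, SE, n = 3 days; limma adjusted p = 0.785). Pm20d1, an enzyme gene that makes N-acyl amino acids, had a mean difference of 0.53, the retinol saturase gene Retsat of 0.42, Slc16a14 of the monocarboxylate transporter family of 0.52, the adhesion receptor gene Adgrd1 of 0.42 and Tesc, a calcium-binding protein gene, of 0.34. Fez1, Lyrm4, Mettl15, Rinl, H2aj and Tspan10 had means of 0.28 to 0.39.

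On the lower side Slc23a1, a vitamin C transporter gene, read 6.23, 6.26 and 7.01 in T58A, 6.72, 6.68 and 7.61 in wild-type and 9.21, 8.78 and 8.21 in parental ESCs. T58A lay below wild type by 0.42 to 0.59 and both lay below parental ESCs by more (mean -0.50 ± 0.0732, SE, n = 3 days; limma adjusted p = 0.785). The immunoglobulin-family gene Igsf9 had a mean difference of -0.54, the receptor tyrosine kinase gene Tek of -0.41, the scaffold gene Ahnak of -0.50, the splicing regulator gene Esrp1 of -0.41 and the corepressor gene Runx1t1 of -0.46. Slc39a8, a zinc and manganese transporter gene, read 3.27, 3.95 and 5.45 in T58A and 3.60, 4.27 and 6.53 in wild-type ESCs, so that its difference was widest at day 5. Both lines were below the filter level before day 5, and its mean of -0.58 was -0.32 without day 5. Fam171b, Tmprss13 and Rnf128 had means of -0.47, -0.59 and -0.57. Of the 24 genes 16 had several probe sets, and of 14 other probe sets above the filter 11 had the same direction in the mean and 8 on all 3 days. The exceptions in the mean were 1 of the 2 of Rinl and those of H2aj and Ahnak, at -0.06, -0.06 and 0.16. With the mean of a gene's probe sets in place of 1 probe set, the mean difference was 0.38 for Rec114, 0.24 for Pm20d1, 0.10 for Rinl, 0.06 for H2aj, -0.03 for Ahnak and -0.26 for Runx1t1. Slc16a14, Tek and Tmprss13 also had readings below the filter level.

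**Figure D4:**
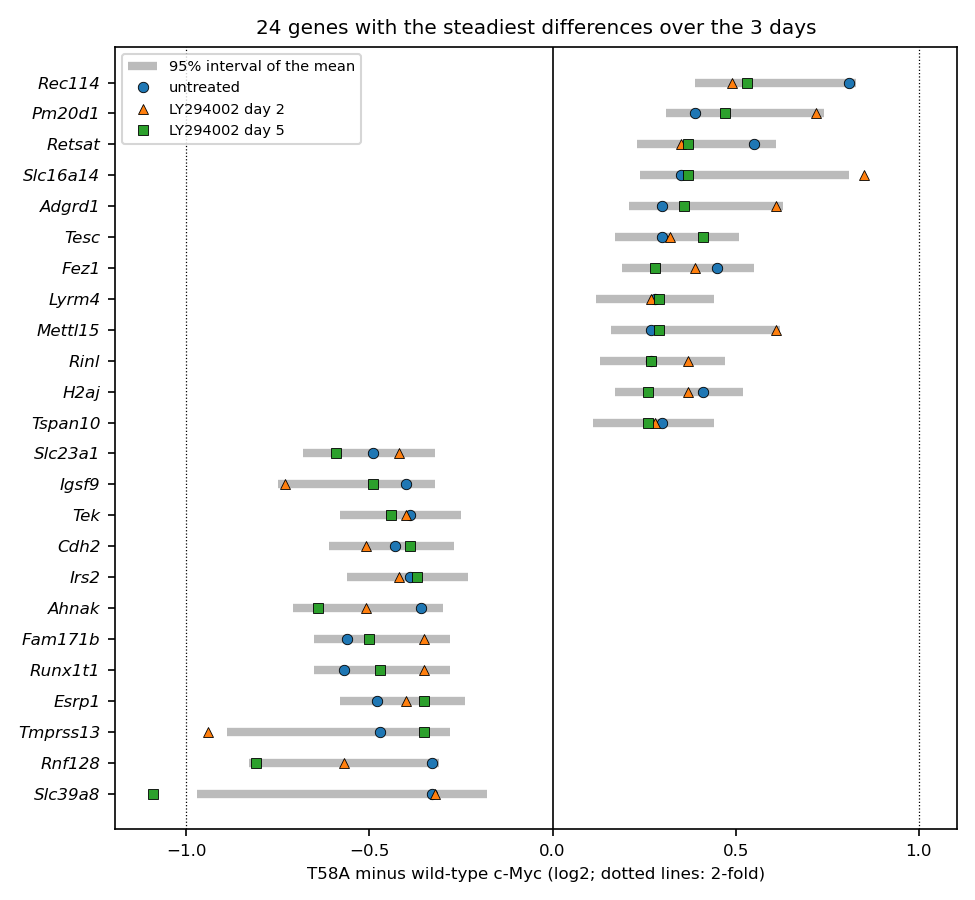
Differences, T58A minus wild-type c-Myc (log2), untreated (circles), at day 2 (triangles) and at day 5 (squares) for the 12 steadiest genes in each direction, with the 95% interval of the mean (grey bars). Each gene has all 3 points on 1 side of 0, as its choice required, and only Slc39a8 at day 5 (-1.09) passes the dotted 2-fold lines.

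Untreated, the largest differences were in Limch1, a gene of an actomyosin regulator, and Lockd, a non-coding RNA gene. Limch1 read 5.65, 5.47 and 6.05 in T58A and 4.35, 5.49 and 6.12 in wild-type ESCs, 2.46-fold higher in T58A untreated (1.30). The wild-type untreated sample was the low one and below the filter level, so the size is uncertain, and parental ESCs read 5.57. Lockd read 6.07, 5.04 and 4.06 in T58A and 7.11, 5.18 and 4.08 in wild-type ESCs, 2.06-fold lower in T58A untreated. At day 5, Inhbb, an activin subunit gene, read 7.66 in T58A and 6.58 in wild-type ESCs, while at day 2 it read 7.00 in T58A and 7.70 in wild-type ESCs. Gbp2, an interferon-induced GTPase gene, read 2.92, 2.98 and 5.78 in T58A, 2.64, 3.18 and 7.38 in wild-type and 2.85, 7.14 and 9.21 in parental ESCs, 3.04-fold lower in T58A than in wild type at day 5. It was below the level filter before day 5 in both c-Myc lines. A second Gbp2 probe set differed less at day 5, with -0.07 untreated, -0.14 at day 2 and -0.78 at day 5. Gbp2b, of the same gene family and similar in sequence, read 6.59 in T58A and 7.54 in wild-type ESCs at day 5. Of 12 interferon response genes tested 11 were lower in T58A at day 5 (background 50.7%), with a median of -0.27.

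**Figure D5:**
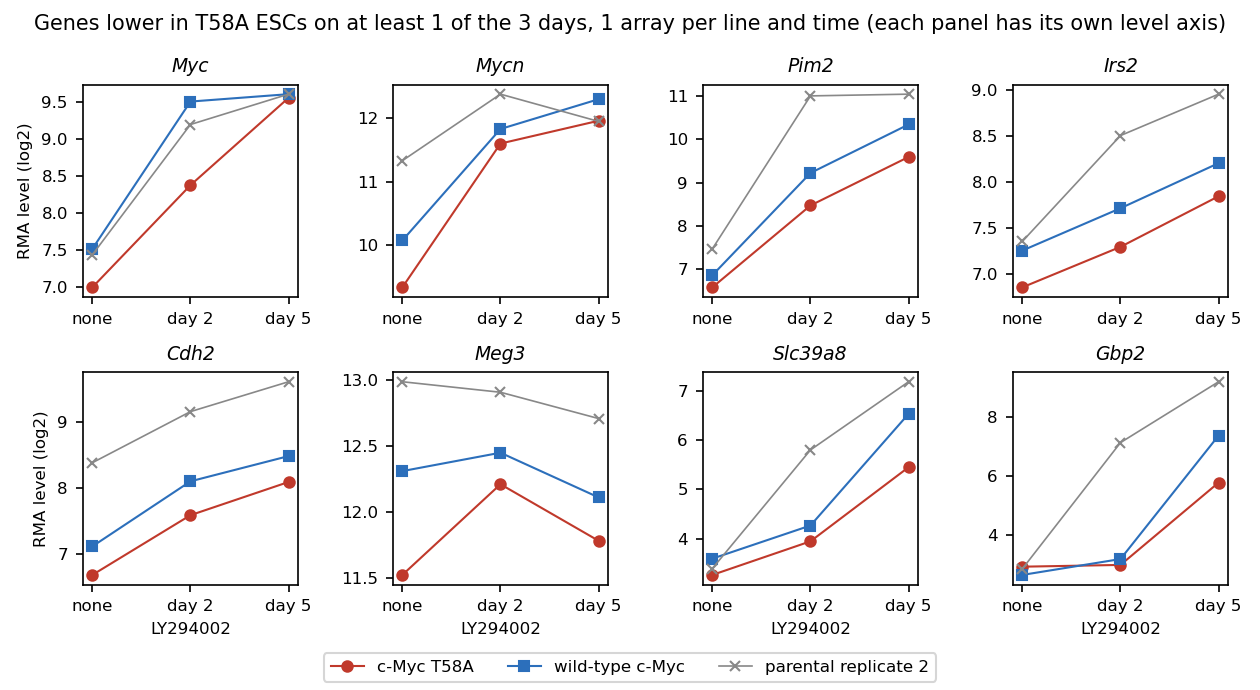
RMA levels (log2) by time under LY294002 of 8 genes that read lower in c-Myc T58A (red circles) than in wild-type c-Myc ESCs (blue squares) on at least 1 day, with parental replicate 2 (grey crosses), 1 array per point. T58A lies below wild type at each time for 7 of them, and Gbp2 is the exception, at 2.92 in T58A and 2.64 in wild type untreated. Both readings are below the filter level, and a second Gbp2 probe set, not drawn, read 2.94 in T58A and 3.01 in wild type.

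Whether the line difference itself moved with LY294002 was described by setting the mean of the day 2 and day 5 differences against the untreated one. This departure reached 2-fold for 3 genes upward (0.0225%) and 5 downward (0.0376%). Pax6, a neural and eye transcription factor gene, read 6.02, 7.01 and 6.13 in T58A and 6.74, 6.59 and 5.84 in wild-type ESCs, a departure of 1.07, with T58A the lower line untreated and the higher one under LY294002. Ttn, the titin gene, departed by 1.13 and Hypk, a chaperone gene, by 1.04. In the downward direction were Limch1 (-1.35), Bicdl2 of the dynein adaptor family (-1.26), Gbp2 (-1.18), Pou3f1 (-1.14) and Acbd7, of the acyl-CoA-binding family (-1.05). Limch1, Bicdl2, Gbp2 and Acbd7 each had untreated or day 2 readings below the filter level, as Ttn had at day 5. These sizes are therefore uncertain. The second Gbp2 probe set moved less, with differences of -0.07 untreated and -0.14 and -0.78 at days 2 and 5. A limma coefficient for line by LY294002, with 1 residual degree of freedom, passed for 0 genes, and 152 higher and 246 lower genes had an unadjusted p under 0.05.

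Against parental replicate 2, T58A ESCs were at least 2-fold apart in 211 genes untreated (1.59%), 249 at day 2 (1.87%) and 279 at day 5 (2.1%). Wild-type c-Myc ESCs were so in 82 (0.616%), 179 (1.35%) and 136 (1.02%). Both comparisons use the same parental arrays and have 1 sample per side, so their counts stand side by side with no test. Most of these genes were lower in the c-Myc lines: 169 (1.27%), 205 (1.54%) and 272 (2.04%) in T58A and 70 (0.526%), 168 (1.26%) and 132 (0.992%) in wild type at the 3 times.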

How the data were processed

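RNA was measured on Affymetrix arrays, 1 per sample, from TRIzol extracts labelled as biotinylated cRNA, per the labels' protocols. The deposited values are log2 probe set levels that the authors made with RMA and the affy package, per the submitters' processing notes, with versions and settings not given in the sources used here. Of 45101 probe sets, 64 were controls, 34945 named 1 gene in the platform annotation (34741 matched to a RefSeq gene by identifier), 932 named several and 9160 none. Each of 18193 genes is represented by its brightest single-gene probe set on average over the 18 arrays, and 9010 genes had several to choose from. Depth does not apply to arrays.

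The mean difference over the 3 days was tested with limma 3.58.1 (R 4.3.3; lmFit and eBayes, 2 residual and 3.952 prior degrees of freedom) with day as a block, 2-sided, with Benjamini-Hochberg adjustment over 13307 genes and a threshold of 0.05. Time pairs the samples by design, and deviations from the line means of same-day samples correlated over genes at 0.898, 0.503 and 0.853. Single days have 1 sample per line and no test.

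Genes named were drawn from the 12 steadiest in each direction and the 4 largest differences each way on each day. They were also drawn from the 6 largest departures each way, the 4 largest of each list and a fixed set with Myc. Not every gene that these rules pick is named in the text. Other genes in the text were picked with their values in view. Predicted and RIKEN-type names were only counted: 1 ranked among the steady genes in each direction and 2 among those higher at day 5. Members and the 29 lists were chosen with earlier results of these data known. Gene positions and promoters are from RefSeq GRCm38.p6 tables.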

Additional observations from a re-analysis of the deposited data

Results flagged for a closer look

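Genes whose level moved in opposite directions with LY294002 in the T58A line and in the wild-type line, at both day 2 and day 5, were looked for among the named genes, with the departure of the line difference from its untreated value given in log2. The opposition in each gene was not tested on its own, and the limma coefficient for line by LY294002 passed for 0 of 13307 genes. Pax6 departed by 1.07: it was 0.99 and 0.11 above untreated at days 2 and 5 in T58A ESCs and at -0.15 and -0.90 from it in wild-type ESCs. Tyms, the thymidylate synthase gene, departed by 0.66, with changes of 0.40 and 0.05 in T58A and -0.10 and -0.77 in wild-type ESCs. Col1a2, a fibrillar collagen gene, departed by 0.38 and Neu1, a lysosomal sialidase gene, by 0.28. Mixl1, a mesendoderm gene, departed by -0.26, between changes of -0.25 and -0.14 in T58A and 0.07 and 0.07 in wild-type ESCs, with readings near the filter level. Gclc, of glutathione synthesis, departed by -0.18. For Pax6, Tyms, Col1a2 and Neu1 the untreated T58A sample was the lower one, by 0.72, 0.76, 0.42 and 0.44, and that single array enters both changes of its line.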

How the results depend on the processing

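The count of genes that differ between the lines was 0 under each of 13 alternatives: without a replicate block for day, without the filter, with the filter at the 60th percentile, after centring or quantile normalization, with the mean or the most variable probe set, with a trended robust prior, with parental replicate 2 in the fit, at a threshold of 0.1 and with each day left out. Without the replicate block 0 passed and 30 higher and 23 lower genes had an unadjusted p under 0.05. Leaving out each day gave 0 in each case, range 0 to 0. The fits without a day had 1 residual degree of freedom, so their unchanged 0 says little about stability. The steady genes kept their direction in 279 of 279 alternatives, which their choice largely fixed, while 6 shrank over 1.5 times with the mean of probe sets and Slc39a8 without day 5. Of 174 list medians 167 moved by less than 1 SD of the list's own daily medians. This measure is lenient for a list that stood apart on a single day. The ATF4 list median of 0.24 thus counted as unmoved at -0.03 without day 2 and at 0.45 without day 5. The glycolysis list median of -0.07 did so at 0.06 without day 2. The FOXO list median of -0.14 was -0.08 with the mean of probe sets and -0.11, -0.19 and -0.11 without untreated, day 2 and day 5. Counts of 2-fold genes were small and moved. Untreated, 2 became 4 without the filter, 1 at the 60th percentile, 1 with the mean of probe sets, 95 at 1.5-fold and 0 at 3-fold. At day 2, 27 became 243 at 1.5-fold and 2 at 3-fold. At day 5, 3 became 8 without the filter, 1 at the 60th percentile, 1 with the mean of probe sets, 110 at 1.5-fold and 1 at 3-fold. The count of 8 departures with LY294002 became 0 as a limma test, which has 1 residual degree of freedom. Each line has 1 array per day, so the error of a single-day value cannot be estimated.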

Other observations

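Extraembryonic and basement membrane genes, ERK response genes and sterol synthesis genes had values not yet given, with 0 passing in any of the 3 lists. Lamb1, a laminin gene, read 9.36, 9.99 and 10.58 in T58A and 9.56, 10.22 and 10.95 in wild-type ESCs. The collagen IV gene Col4a1 and the matrix gene Sparc had mean differences of -0.27 and -0.26. They belong to a list of 16 primitive and visceral endoderm genes, of which 10 were below 0 (background 44.9%, median -0.06). Of 15 ERK response genes 13 had mean differences below 0 (background 44.9%), with a median of -0.11 and with Myc itself on the list. Egr1, an immediate early gene, differed by -0.63 untreated, by 0.25 at day 2 and by -0.39 at day 5. Of 25 cholesterol and fatty acid synthesis genes 15 were below 0 (background 44.9%). The largest difference was that of Dhcr7, of the last step of cholesterol synthesis, at -0.26 ± 0.0892 (SE, n = 3 days, limma adjusted p = 0.785).

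Among 9 DNA methylation genes 8 had mean differences below 0 (background 44.9%), with -0.23 for the dioxygenase gene Tet1 and -0.21 for the cofactor gene Dnmt3l. Trophoblast genes split 5 and 5, with Esx1, an X-linked homeobox gene, at 0.28 and the keratin gene Krt18 at -0.32. Neural genes had the cytoskeletal gene Map2 at -0.38, Sox1 at 0.24 and Hes5 at 0.23. Medians over the 3 days were -0.14 for 11 fibroblast genes, -0.06 for 16 lysosome genes, -0.03 for 12 Wnt genes, 0.02 for 23 germ cell genes, -0.00 for 15 heat shock and Nrf2 genes, 0.01 for 7 primitive streak genes, -0.03 for 13 neuroectoderm genes and -0.07 for 5 X inactivation and Y-linked genes, and the single 2-cell-like gene tested, Eif1a, had 0.06.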
